A study of Mus musculus and Homo sapiens with 24 samples.

Results

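The genes described here encode the integrin subunits and the laminin chains. They were taken by symbol, case ignored: the alpha integrins (ITGA followed by a number, 2B, D, E, L, M, V or X), the beta integrins ITGB1 to ITGB8, and the laminin chains LAMA, LAMB and LAMC with a number from 1 to 5. This gave 38 of the 58735 gene rows of the human table and 37 of the 56748 rows of the mouse table, or 75 of 115483 rows in all, with LAMB4 in the human table alone. The rule used names and no measured value, though it was chosen with earlier results of these data known.

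The libraries are poly-A RNA-seq of a pair of skeletal myoblast lines carried through differentiation. LHCN-M2, a human line made immortal with telomerase and CDK4, was sampled at days 0, 1 and 12, and C2C12, a mouse line, at days 0, 1 and 6. Each of the 6 groups holds 4 libraries, 24 in all, and every sample carries the genotype label control. Each line is a single cultured line, so differences between LHCN-M2 and C2C12 combine species, line and culture, and the last days, 12 and 6, differ as well. The labels do not say whether the 4 libraries of a day came from separate cultures, so the p-values measure only the spread between libraries, which may be technical.

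Integrins are cell-surface receptors made of an alpha and a beta subunit that link the extracellular matrix to the actin cytoskeleton, and the alpha subunit largely sets which matrix protein is bound. Laminins are trimers of an alpha, a beta and a gamma chain that polymerise into the basement membrane around each muscle fibre. In skeletal muscle the receptor of ITGA7 and ITGB1 and the dystroglycan complex bind laminins that contain the LAMA2 chain, and loss of LAMA2 causes a congenital muscular dystrophy in humans.

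Library totals ran from 33030258 to 48546621 counts in LHCN-M2 and from 32795699 to 43827517 in C2C12. The 10 skeletal muscle markers, among them DES, MYOG and MYH3, were detected in both lines over the days sampled. In LHCN-M2 MYMK and MYOG were at 0 counts in all day 0 libraries. Their summed level in LHCN-M2 was 565 to 762 CPM (counts scaled by library total) at day 0, 1624 to 1879 CPM at day 1 and 5493 to 5765 CPM at day 12, and 9 of the 10 were higher at day 12 than at day 0 while MYF5 was lower. In C2C12 the sum was 258 to 274 CPM at day 0, 386 to 415 CPM at day 1 and 2496 to 2637 CPM at day 6, with all 10 higher at day 6 than at day 0. A pair of LHCN-M2 libraries stood apart from their groups. Day 0 replicate 2 differed from the other day 0 libraries by a chi-square per degree of freedom of 115 to 152, against 9.18 to 13.7 among those others, and its DES level was 439 CPM against 249 to 266 CPM. Day 12 replicate 1 differed from its group by 29.1 to 30.04, against 6.32 to 7.37 among the others. Of the 47 changes called below for the members named in LHCN-M2, 47 kept their call and sign when both libraries were left out, 8 further changes passed the test, and log2 fold changes moved by -0.21 to 0.13. In C2C12 day 0 replicate 1 also lay apart, by less than LHCN-M2 day 0 replicate 2. It differed from its group by 21.1 to 23.7, against 6.83 to 11.4 among the others, and was left out in turn like every other library.

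Genes were tested with edgeR's quasi-likelihood test over all expressed genes of a line, and a change was called at a Benjamini-Hochberg adjusted p below 0.05. Of the members, 32 of 38 in LHCN-M2 and 30 of 37 in C2C12 passed the filter on low counts, and the counts that follow cover those. In LHCN-M2 14 members were higher and 6 lower at day 1 than at day 0, beside 23.4% of all 18214 genes tested called higher and 23.5% called lower. At day 12 against day 0, 17 were higher and 7 lower, beside 27.1% and 27.5% of all genes. Between day 12 and day 1, 12 were higher and 6 lower, beside 20.9% and 18.8%. In C2C12 12 members were higher and 13 lower at day 1 than at day 0, beside 25.9% and 24.4% of 17065 genes. At day 6 against day 0, 11 were higher and 14 lower, beside 33.1% and 32.5%. Between day 6 and day 1, 8 were higher and 15 lower, beside 32.8% and 28.6%. The median log2 fold change of the tested members at the last day over day 0 was 0.70 in LHCN-M2 and -0.13 in C2C12, beside -0.0096 and -0.0278 over all genes. Changes of at least 2-fold made up 13 of the higher and 3 of the lower calls at day 12 in LHCN-M2, where 14.5% and 9.77% of all genes reached that size. In C2C12 they made up 6 of the higher and 11 of the lower calls at day 6, where 9.83% and 13.5% of all genes did.

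The laminin alpha chains set the receptor specificity of the trimer. In LHCN-M2 the genes of the vascular and broadly expressed chains LAMA4 and LAMA5 rose within the first day from a low level and stayed up. LAMA5 was at 9.06, 5.60, 8.19 and 8.05 CPM at day 0, at 171, 158, 201 and 178 CPM at day 1 and at 103, 138, 140.4 and 138 CPM at day 12. LAMA4 was at 4.41, 4.40, 5.76 and 3.49 CPM at day 0, at 53.5, 50.6, 44.0 and 48.6 CPM at day 1 and at 38.0, 53.8, 43.7 and 52.5 CPM at day 12. The day 0 libraries lay far below all later ones for both genes, with no overlap. The log2 fold change at day 1 over day 0 was 4.52 ± 0.16 (SE, adjusted p = 6.65e-12) for LAMA5 and 3.45 ± 0.15 (SE, adjusted p = 9.78e-11) for LAMA4. Between day 12 and day 1 LAMA5 fell slightly, with a log2 fold change of -0.45 ± 0.13 (SE, adjusted p = 0.0135), a call that was lost without day 1 replicate 3 (adjusted p = 0.0534). For LAMA4 the same contrast gave -0.07 ± 0.14 (SE, adjusted p = 0.739).

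LAMA2, the muscle chain, was the most abundant laminin alpha transcript of LHCN-M2 per length on every day. Its levels were 227, 130.3, 254 and 259.6 CPM at day 0, 477, 481, 545 and 510.2 CPM at day 1 and 440.3, 609, 586 and 601 CPM at day 12. All day 1 and day 12 libraries lay above all day 0 libraries, and day 0 replicate 2 and day 12 replicate 1 were the lowest of their groups. LAMA2 rose by a log2 fold change of 1.21 ± 0.17 (SE, adjusted p = 3.39e-05) at day 1 and 1.36 ± 0.17 (SE, adjusted p = 8.04e-06) at day 12 over day 0. Day 12 and day 1 did not differ by the test with all libraries (adjusted p = 0.516), and without the pair of libraries that stood apart day 12 was higher by 0.25 (adjusted p = 0.000461). LAMA3, a chain of epithelial laminins, was at 21.9, 34.1, 34.2 and 33.8 CPM at day 12, against 13.8, 8.67, 15.1 and 13.4 CPM at day 0. Every day 12 library was above every day 0 library, and the log2 fold change was 1.28 ± 0.17 (SE, adjusted p = 1.50e-05). LAMA1, an embryonic chain, ran from 10.8 to 19.5 CPM over all 12 libraries and was not called in any contrast.

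In C2C12 the laminin alpha genes took another course: Lama4 was the leading transcript at day 0 and fell steeply, and Lama5 rose. Lama4 was at 339.7, 420.1, 381 and 381 CPM at day 0, at 205, 205, 202 and 203 CPM at day 1 and at 35.8, 27.7, 34.7 and 33.2 CPM at day 6. The 3 days did not overlap, each lying below the day before, and the log2 fold change at day 6 over day 0 was -3.53 ± 0.08 (SE, adjusted p = 2.88e-19). Lama5 was at 67.2, 88.8, 74.3 and 85.5 CPM at day 0, 119.5, 108, 125 and 122 CPM at day 1 and 127, 104, 105 and 111 CPM at day 6. It was higher than at day 0 in every day 1 and day 6 library, by a log2 fold change of 0.59 ± 0.08 (SE, adjusted p = 4.36e-06) at day 1 and 0.50 ± 0.08 (SE, adjusted p = 1.68e-05) at day 6. Lama1 was at 4.70, 6.06, 6.75 and 5.04 CPM at day 0, at 1.01, 0.552, 0.576 and 0.592 CPM at day 1 and at 0.388, 0.636, 0.709 and 0.582 CPM at day 6. Day 0 was well above both later days, with a log2 fold change of -3.04 ± 0.26 (SE, adjusted p = 6.50e-09) at day 1 over day 0. Lama2 was at 48.7, 64.8, 51.6 and 59.3 CPM at day 0, 45.5, 41.4, 46.8 and 45.6 CPM at day 1 and 69.2, 51.2, 66.7 and 66.4 CPM at day 6. All day 1 libraries lay below all day 0 libraries, and days 0 and 6 overlapped. It fell at day 1, with a log2 fold change of -0.32 ± 0.09 (SE, adjusted p = 0.00615), a call lost without day 0 replicate 2 (adjusted p = 0.0722) or day 1 replicate 2 (adjusted p = 0.0542), and at day 6 it was not called against day 0 (adjusted p = 0.0949), but was called without day 6 replicate 2 (adjusted p = 0.008) or day 0 replicate 2 (adjusted p = 0.0289).

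The summed level of 10 fibroblast and matrix markers moved in the same direction as the laminin alpha total in each line, while single markers moved both ways. The sum was 21730 to 22850 CPM at day 12 in LHCN-M2, against 9942 to 10310 CPM at day 0, and 7 of 8 tested were higher and 1, THY1, lower. Among the higher ones were LUM (log2 fold change 4.97), POSTN (2.81), PDGFRB (2.60) and DCN (2.12). The larger part of the LHCN-M2 sum at day 12 was COL1A1, a collagen I gene, at an average of 13110 CPM (log2 fold change 1.20 over day 0). In C2C12 it was 2211 to 2290 CPM at day 6, against 6634 to 7864 CPM at day 0, and 3 of 8 tested were higher and 5 lower. Most of the C2C12 sum was collagen I, with Col1a2 at an average of 961 ± 23.1 CPM at day 6 and 5161 ± 407 CPM at day 0. The matrix proteoglycan genes Dcn and Lum rose there, with Dcn averaging 288 ± 15.5 CPM at day 6 and 9.91 ± 1.54 CPM at day 0 (SD, n = 4 each). The fibroblast transcription factor TCF21 was at 0 counts in all day 12 libraries of LHCN-M2 and on all 3 days of C2C12. The part of such cells or states in the laminin changes was not tested, and in bulk RNA fewer cells of a type cannot be told apart from less RNA per cell.

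**Figure D1:**
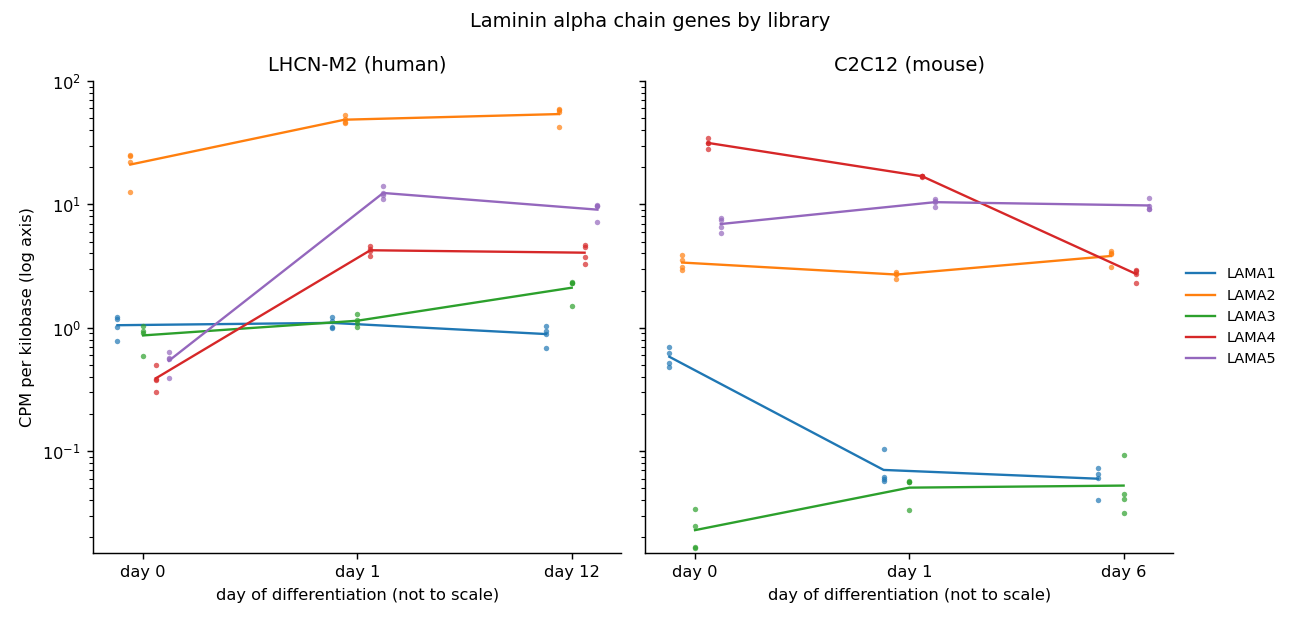
Levels of the laminin alpha chain genes in CPM per kilobase of the deposited gene length (log axis) by day, LHCN-M2 on the left and C2C12 on the right; points are libraries, slightly offset by gene, and lines join the means of 4 libraries. LAMA4 and LAMA5 rise between days 0 and 1 in LHCN-M2, where LAMA2 stays on top, while LAMA4 falls below LAMA5 and LAMA2 by day 6 in C2C12.

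The beta and gamma chains complete the trimer, LAMB1 with LAMC1 in most laminins and LAMB2 at neuromuscular junctions and in vessels. In LHCN-M2 LAMB2 rose and LAMB1 fell. LAMB2 was at 309.5, 329.7, 298 and 309 CPM at day 0, 519, 474, 525 and 517 CPM at day 1 and 529.6, 592, 587 and 602 CPM at day 12. All day 0 libraries were below all later ones, with a log2 fold change of 0.71 ± 0.07 (SE, adjusted p = 4.37e-07) at day 1 and 0.89 ± 0.07 (SE, adjusted p = 2.34e-08) at day 12 over day 0. The smaller step between day 12 and day 1, 0.18 ± 0.07 (SE, adjusted p = 0.0392), lost its call without any 1 of 9 libraries (adjusted p up to 0.128). LAMB1 was at 336, 351, 361 and 354 CPM at day 12, against 479, 397, 485 and 514 CPM at day 0. The day 12 libraries lay below the day 0 libraries without overlap, and the log2 fold change was -0.42 ± 0.08 (SE, adjusted p = 2.66e-04).

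In C2C12 both beta chain genes fell, Lamb2 by more. Lamb2 was at 228, 287, 267 and 272 CPM at day 0, 248, 217, 256 and 241 CPM at day 1 and 73.7, 70.0, 70.7 and 76.3 CPM at day 6. Days 0 and 1 overlapped and day 6 lay far below both, at a log2 fold change of -1.86 ± 0.07 (SE, adjusted p = 1.80e-15) over day 0. Lamb1 was at 262, 255, 262 and 263 CPM at day 6, against 372, 429, 438 and 394 CPM at day 0, a log2 fold change of -0.65 ± 0.05 (SE, adjusted p = 1.19e-09) with no overlap. Its decline at day 1 was small, -0.17 ± 0.05 (SE, adjusted p = 0.0115), and was lost without any 1 of 7 libraries (adjusted p up to 0.158). LAMB3, a chain of epithelial laminin, was low in both lines, at 3.72 to 9.32 CPM in LHCN-M2 and 14.5 to 21.6 CPM in C2C12, and was higher at the last day than at day 0 in both, by 0.96 and 0.38 on the log2 scale.

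LAMC1, the common gamma chain, was not called in any LHCN-M2 contrast with all libraries and fell in C2C12. In LHCN-M2 it was at 971, 655, 1019 and 1008 CPM at day 0, 952, 948, 1011 and 1006 CPM at day 1 and 824, 1107, 1075 and 1089 CPM at day 12. The ranges of the 3 days overlapped, and the lowest values were those of day 0 replicate 2 and day 12 replicate 1. Without that pair, the log2 fold change was 0.15 at day 12 over day 0 (adjusted p = 0.00327) and 0.15 at day 12 over day 1 (adjusted p = 0.00191). Lamc1 was at 266, 344, 331 and 312 CPM at day 0, at 228, 233, 253 and 225 CPM at day 1 and at 146, 137, 145 and 149 CPM at day 6. Each later day lay below the earlier one in all libraries, with a log2 fold change of -1.12 ± 0.07 (SE, adjusted p = 5.49e-12) at day 6 over day 0.

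LAMC3, a further gamma chain, had 77 counts in the 4 day 12 libraries of LHCN-M2 and 2 counts in the 4 day 0 libraries, 37.7 times as many after scaling (95% interval 10.1 to 317, for counting error only). The interval leaves out the spread between libraries, which at day 12 was 0.0666 ± 0.0366 CPM per kilobase (SD, n = 4). LAMC3 passed the filter on low counts through day 12 alone.

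**Figure D2:**
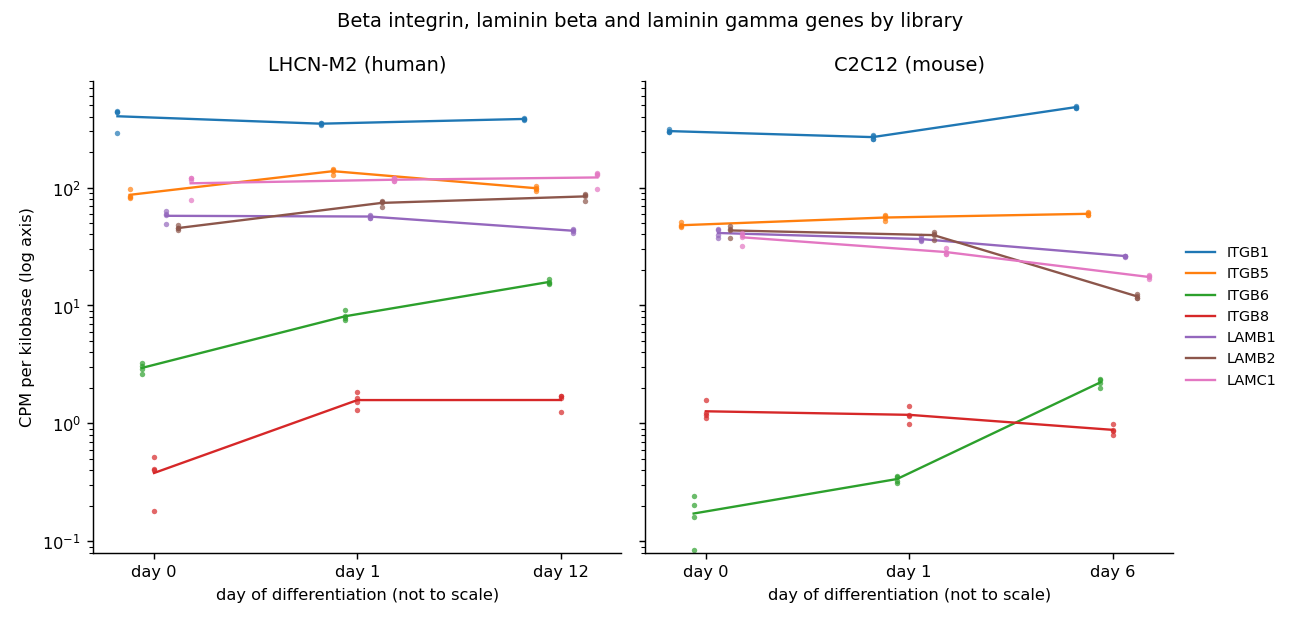
Levels of selected beta integrin, laminin beta and laminin gamma chain genes, LAMC1 for the last, in CPM per kilobase (log axis) by day, LHCN-M2 on the left and C2C12 on the right; points are libraries and lines join the means of 4 libraries. ITGB1 is on top on every day in both lines, ITGB6 climbs in both, LAMB2 and LAMC1 fall by day 6 in C2C12, and 1 LHCN-M2 day 0 library lies low for ITGB1 and LAMC1.

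The laminin-binding integrins are those with ITGA3, ITGA6 and ITGA7. ITGA7 rose in both lines. It was at 88.5, 91.4, 70.5 and 74.1 CPM at day 0, 310, 256, 306 and 291 CPM at day 1 and 347, 358, 364 and 384 CPM at day 12 in LHCN-M2. Itga7 was at 183, 189.5, 204 and 199 CPM at day 0, 270.1, 242, 290.5 and 262 CPM at day 1 and 486, 497, 482 and 485 CPM at day 6 in C2C12. In each line every later day lay above the earlier one in all libraries. The rise came mostly by day 1 in LHCN-M2, with a log2 fold change of 1.84 ± 0.10 (SE, adjusted p = 4.58e-10) at day 1 and 2.16 ± 0.10 at day 12, and mostly later in C2C12, with 0.46 ± 0.05 at day 1 and 1.33 ± 0.06 (SE, adjusted p = 1.49e-14) at day 6.

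ITGA6, which pairs with ITGB1 or ITGB4, rose far more in LHCN-M2 than in C2C12. In LHCN-M2 it was at 136, 95.7, 134 and 152 CPM at day 0, 279, 265, 317 and 312 CPM at day 1 and 960.5, 1096, 1052 and 1067 CPM at day 12. The 3 days did not overlap, and the log2 fold change at day 12 over day 0 was 3.01 ± 0.12 (SE, adjusted p = 2.65e-11). In C2C12 Itga6 was at 30.8, 31.1, 31.3 and 31.8 CPM at day 0, 22.7, 27.8, 23.8 and 26.2 CPM at day 1 and 57.8, 53.2, 59.5 and 59.2 CPM at day 6. It fell at day 1, with a log2 fold change of -0.32 ± 0.07 (SE, adjusted p = 7.96e-04), and was higher at day 6 than at day 0 by 0.88 ± 0.07 (SE, adjusted p = 5.06e-10). ITGA3 fell at the last day in both lines. In LHCN-M2 it was at 603 to 652 CPM at day 12, against 865 to 947 CPM at day 0. In C2C12 Itga3 was at 105, 116, 115 and 116 CPM at day 0, 148, 134, 149 and 140.4 CPM at day 1 and 47.3, 42.2, 48.0 and 50.8 CPM at day 6, highest at day 1 and lowest at day 6 with no overlap of the days. The last day and day 0 did not overlap in either line, at log2 fold changes of -0.55 and -1.26.

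The collagen-binding integrins are ITGA1, ITGA2, ITGA10 and ITGA11, of which ITGA2 was not tested in C2C12. The other 3 were called in opposite directions in the lines at the last day over day 0, as were 26.5% of all matched genes. ITGA11, a receptor for fibrillar collagen, was at 217, 149, 214 and 209 CPM at day 0, 542, 546, 621 and 579 CPM at day 1 and 1332, 1722, 1819 and 1698 CPM at day 12 in LHCN-M2. Itga11 was at 65.7, 90.2, 77.5 and 74.1 CPM at day 0, 58.7, 49.8, 48.3 and 59.4 CPM at day 1 and 14.8, 14.2, 21.9 and 19.1 CPM at day 6 in C2C12. It climbed at each step in LHCN-M2 and descended at each step in C2C12, with no overlap between days in either. At the last day over day 0 the log2 fold change was 3.06 ± 0.13 (SE, adjusted p = 3.13e-11) in LHCN-M2 and -2.13 ± 0.12 (SE, adjusted p = 2.36e-12) in C2C12.

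ITGA10, best known from cartilage, went the other way. It was at 199, 154, 201 and 196 CPM at day 0, 118, 112, 119 and 109 CPM at day 1 and 25.1, 22.9, 25.9 and 23.0 CPM at day 12 in LHCN-M2. Itga10 was at 0.960, 1.02, 1.32 and 1.70 CPM at day 0, 11.0, 10.6, 11.6 and 12.5 CPM at day 1 and 11.4, 12.7, 12.1 and 13.8 CPM at day 6 in C2C12. Levels dropped step by step in the human line, while in the mouse line the rise was present at day 1 and days 1 and 6 overlapped. The last-day log2 fold change was -2.95 ± 0.10 (SE, adjusted p = 1.96e-12) in LHCN-M2 and 3.31 ± 0.16 (SE, adjusted p = 1.20e-13) in C2C12.

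ITGA1, a collagen IV receptor, and ITGA2, a collagen I receptor, lie 30.115 kb apart on chromosome 5, at chr5:52787896-52959210 and chr5:52989326-53094779 on the plus strand (GRCh38, whole gene). In LHCN-M2 ITGA1 was at 55.5, 69.5, 70.8 and 64.7 CPM at day 12, against 19.8, 18.8, 25.9 and 22.6 CPM at day 0, and rose, with a log2 fold change of 1.58 ± 0.12 (SE, adjusted p = 3.40e-08). ITGA2 was at 5.03, 6.91, 5.29 and 5.74 CPM at day 12, against 17.2, 8.99, 20.1 and 18.5 CPM at day 0, and fell, with a log2 fold change of -1.50 ± 0.22 (SE, adjusted p = 2.88e-05). For neither gene did these days overlap, so these neighbours changed in opposite directions. In C2C12 Itga1 was at 18.9, 21.6, 19.3 and 17.9 CPM at day 0, 8.72, 8.34, 9.37 and 7.70 CPM at day 1 and 1.36, 0.999, 2.94 and 0.921 CPM at day 6. It fell at each step, to a log2 fold change of -3.64 ± 0.23 (SE, adjusted p = 1.18e-11) at day 6 over day 0. Itga2 had 37 counts over all 12 C2C12 libraries and was not tested. For the other genes that differed in direction, the human positions are chr15:68296533-68432162 for ITGA11 and chr1:145891208-145910189 for ITGA10, both on the minus strand, and chr6:112108760-112254939 on the minus strand for LAMA4.

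The mouse promoter windows of the 3 collagen receptor genes that changed in C2C12 and of Itga4, the member with the largest last-day rise there, are shown because the first group ran in opposite directions in the lines and the last rose most. They come from RefSeq on GRCm38.p6 and run from 250 bases before to 50 bases after the annotated start, 5′ to 3′ on the strand of the gene: Itga1 at chr13:115101915-115102214 (minus), Itga10 at chr3:96645334-96645633 (plus), Itga11 at chr9:62677605-62677904 (plus) and Itga4 at chr2:79255176-79255475 (plus). Capitals mark the motifs searched on both strands: CAGCTG and CACCTG, forms of the E-box bound by myogenic factors, CATTCC, the core of the MCAT element, and TGAGTCA, an AP-1 site.
Itga1: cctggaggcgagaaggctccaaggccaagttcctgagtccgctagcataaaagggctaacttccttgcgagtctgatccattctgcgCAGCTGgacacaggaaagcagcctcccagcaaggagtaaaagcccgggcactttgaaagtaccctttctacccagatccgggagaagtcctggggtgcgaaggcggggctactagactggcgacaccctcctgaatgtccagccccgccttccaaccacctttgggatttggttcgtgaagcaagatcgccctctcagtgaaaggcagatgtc
Itga10: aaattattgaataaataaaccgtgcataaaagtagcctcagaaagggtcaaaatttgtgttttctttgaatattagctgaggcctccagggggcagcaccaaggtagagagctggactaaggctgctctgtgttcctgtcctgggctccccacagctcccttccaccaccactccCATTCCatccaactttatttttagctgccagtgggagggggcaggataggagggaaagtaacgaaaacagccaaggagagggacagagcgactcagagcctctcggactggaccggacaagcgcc
Itga11: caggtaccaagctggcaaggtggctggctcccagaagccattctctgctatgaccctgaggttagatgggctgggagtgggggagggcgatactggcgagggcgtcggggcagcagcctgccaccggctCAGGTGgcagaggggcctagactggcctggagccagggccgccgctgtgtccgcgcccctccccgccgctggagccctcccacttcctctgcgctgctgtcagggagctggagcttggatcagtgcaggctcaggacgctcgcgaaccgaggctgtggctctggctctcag
Itga4: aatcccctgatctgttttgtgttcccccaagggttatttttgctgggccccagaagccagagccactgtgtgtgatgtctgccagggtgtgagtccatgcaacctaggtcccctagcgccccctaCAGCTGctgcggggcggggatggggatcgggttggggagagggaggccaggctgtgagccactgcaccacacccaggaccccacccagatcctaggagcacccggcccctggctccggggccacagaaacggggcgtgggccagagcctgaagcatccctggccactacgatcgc
Itga1 holds CAGCTG 163 bases before the start and Itga4 holds it 125 bases before. Itga10 holds CATTCC 75 bases before its start. Itga11 holds CACCTG on the opposite strand (CAGGTG as printed) 121 bases before its start. A match is a description of the letters and not a site. Of 32851 mouse promoter windows of the same length, 16.3% hold CAGCTG, 20.2% CACCTG, 14.7% CATTCC and 5.2% TGAGTCA. Windows of 23 of the 37 mouse members (26 windows) were used. Member windows on a single chromosome were left out, while the 32851 windows include that chromosome. Among the 9 windows of 7 members higher at day 6 than at day 0, 3 held CAGCTG, 4 CACCTG, 3 CATTCC and 0 TGAGTCA. Among the 11 windows of 10 members that were lower, 3 held CAGCTG, 3 CACCTG, 0 CATTCC and 0 TGAGTCA.

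**Figure D3:**
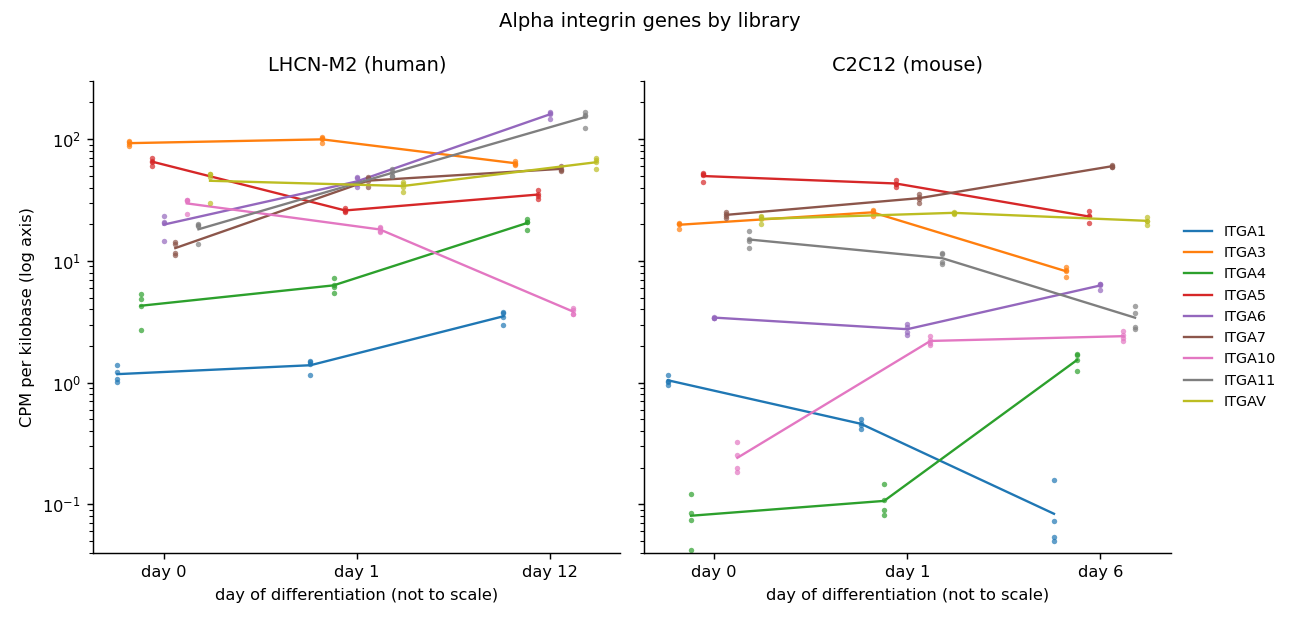
Levels of selected alpha integrin genes in CPM per kilobase (log axis) by day, LHCN-M2 on the left and C2C12 on the right; points are libraries and lines join the means of 4 libraries. ITGA6 and ITGA11 end on top in LHCN-M2 and ITGA7 in C2C12, and ITGA1, ITGA10 and ITGA11 run in opposite directions in the lines.

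The fibronectin and vitronectin receptors use ITGA5, ITGAV and ITGA8 through the RGD motif, and ITGA4 binds VCAM1 and fibronectin. ITGA4 rose in both lines. It was at 33.7, 21.2, 38.1 and 42.1 CPM at day 0, 43.2, 48.5, 57.3 and 49.9 CPM at day 1 and 141, 165, 166 and 173 CPM at day 12 in LHCN-M2. Itga4 was at 1.19, 1.69, 1.05 and 0.584 CPM at day 0, 1.14, 1.25, 1.52 and 2.06 CPM at day 1 and 23.8, 17.4, 23.4 and 21.3 CPM at day 6 in C2C12. In C2C12 days 0 and 1 overlapped, at no more than 2.06 CPM, and day 6 stood clear of both. The last-day log2 fold change was 2.25 ± 0.17 (SE, adjusted p = 2.11e-08) in LHCN-M2 and 4.26 ± 0.22 (SE, adjusted p = 6.09e-13) in C2C12.

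ITGA5, the main fibronectin receptor subunit, fell in both lines, early in LHCN-M2 and late in C2C12. It was at 491, 457, 528 and 503 CPM at day 0, 198, 189.9, 206 and 193 CPM at day 1 and 245, 259, 269 and 289 CPM at day 12 in LHCN-M2. Day 1 was the lowest and day 12 lay between, with log2 fold changes of -1.33 ± 0.07 (SE, adjusted p = 7.56e-10) at day 1 and -0.90 ± 0.07 (SE, adjusted p = 4.39e-08) at day 12 over day 0. Itga5 was at 220.2, 253, 249.9 and 259 CPM at day 0, 229.7, 201, 213 and 209.5 CPM at day 1 and 114, 115, 101 and 126 CPM at day 6 in C2C12. Days 0 and 1 overlapped: the day 1 difference of -0.20 ± 0.07 (SE, adjusted p = 0.0144) was lost without any 1 of 6 libraries (adjusted p up to 0.129), while day 6 gave -1.10 ± 0.07 (SE, adjusted p = 7.93e-12).

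ITGAV, which pairs with several beta subunits, changed less. It was at 398, 246, 426 and 424 CPM at day 0, 303, 365, 352 and 333 CPM at day 1 and 465, 577, 551 and 528 CPM at day 12 in LHCN-M2. Day 12 was above the other days in every library, at 0.51 ± 0.14 (SE, adjusted p = 0.00668) over day 0, and day 0 replicate 2 was low. At day 1 over day 0 the log2 fold change was -0.14 ± 0.14 (SE, adjusted p = 0.437) with that library and -0.28 (adjusted p = 0.00288) without it. In C2C12 Itgav was at 216, 237, 247 and 249 CPM at day 0, 263, 267, 265 and 271 CPM at day 1 and 229, 211, 248 and 228 CPM at day 6. Day 1 lay above both other days, which overlapped. It was higher at day 1 than at day 0 by 0.17 on the log2 scale (adjusted p = 0.0167), and was not called at day 6 over day 0 (adjusted p = 0.444). Itga2b, the platelet fibrinogen receptor subunit, was at 2.35, 3.88, 2.97 and 3.47 CPM at day 6, against 18.1, 19.1, 20.96 and 21.6 CPM at day 0 in C2C12. It fell without overlap, with a log2 fold change of -2.66 ± 0.14 (SE, adjusted p = 7.48e-13), and in LHCN-M2 ITGA2B stayed below 0.75 CPM in every library.

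ITGB1, the beta subunit shared by the laminin, collagen and several fibronectin receptors, was the most abundant member per length on every day in both lines. In LHCN-M2 it was at 2619, 1740, 2631 and 2680 CPM at day 0, 2040, 2093, 2108 and 2123 CPM at day 1 and 2311, 2275, 2339 and 2250 CPM at day 12. Day 0 replicate 2 lay below all day 1 and day 12 libraries, and the other day 0 libraries lay above them. With all libraries no contrast was called, with adjusted p-values of 0.121 at day 1 and 0.572 at day 12 over day 0. Without day 0 replicate 2 the log2 fold change was -0.32 at day 1 (adjusted p = 5.19e-07) and -0.20 at day 12 (adjusted p = 0.00016), so the call for ITGB1 turned on that library. In C2C12 Itgb1 was at 1235, 1207, 1276 and 1197 CPM at day 0, 1043, 1127, 1060 and 1139 CPM at day 1 and 1924, 1943, 2016 and 1968 CPM at day 6. Day 6 was above both earlier days in every library, by 0.68 ± 0.04 (SE, adjusted p = 1.62e-11) over day 0. The small fall at day 1, -0.17 ± 0.04 (SE, adjusted p = 0.00242), lost its call without day 0 replicate 3 (adjusted p = 0.0502) or day 1 replicate 1 (adjusted p = 0.0607).

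Among the beta subunits that pair with ITGAV, ITGB6, known from epithelia and from activation of TGF-beta, rose in both lines. It was at 14.2, 12.2, 13.7 and 15.2 CPM at day 0, 42.6, 36.4, 37.8 and 35.1 CPM at day 1 and 70.8, 73.8, 78.5 and 73.2 CPM at day 12 in LHCN-M2. Itgb6 was at 0.606, 1.72, 1.14 and 1.43 CPM at day 0, 2.33, 2.50, 2.23 and 2.55 CPM at day 1 and 16.4, 14.1, 15.8 and 17.1 CPM at day 6 in C2C12. In both lines each later day lay above the earlier one in all libraries. The last-day log2 fold change was 2.42 ± 0.09 (SE, adjusted p = 1.08e-11) in LHCN-M2 and 3.70 ± 0.20 (SE, adjusted p = 1.27e-12) in C2C12. ITGB8, the other subunit known for TGF-beta activation, was at 18.9, 25.0, 25.8 and 26.0 CPM at day 12, against 6.11, 2.76, 6.25 and 7.91 CPM at day 0 in LHCN-M2, a rise of 2.05 ± 0.23 (SE, adjusted p = 2.48e-06) that was complete at day 1. In C2C12 Itgb8 was at 9.70, 9.51, 8.81 and 11.0 CPM at day 6, against 13.5, 12.9, 12.2 and 17.4 CPM at day 0, and fell, with a log2 fold change of -0.52 ± 0.13 (SE, adjusted p = 0.00105). These ranges did not overlap in either line.

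ITGB5, a vitronectin receptor subunit, ran from 530 to 920.2 CPM in LHCN-M2 and was highest at day 1, with a log2 fold change of 0.67 ± 0.07 (SE, adjusted p = 1.36e-06) over day 0. In C2C12 it ran from 164 to 218 CPM and was higher at day 6 than at day 0 by 0.32 ± 0.05 (SE, adjusted p = 1.08e-05). ITGB3, which pairs with ITGAV, fell in both lines at the last day, at a level below 5 CPM in LHCN-M2 (log2 fold change -1.63) and at 41.3 to 77.4 CPM in C2C12 (-0.63). ITGB4, the partner of ITGA6 in hemidesmosomes, stayed below 4 CPM in both lines and was higher at day 1 than at day 0 in both. Itgb7, a lymphocyte integrin subunit, was at 9.14, 7.78, 10.2 and 10.01 CPM at day 0, 17.6, 16.2, 23.5 and 21.8 CPM at day 1 and 3.88, 4.33, 5.83 and 3.90 CPM at day 6 in C2C12. It was highest at day 1 and lowest at day 6 without overlap, with log2 fold changes of 1.09 ± 0.14 (SE, adjusted p = 1.71e-06) at day 1 and -1.05 ± 0.15 (SE, adjusted p = 2.89e-06) at day 6 over day 0.

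ITGB2, the subunit of the leukocyte integrins, was at 13.2, 16.5, 12.6 and 12.6 CPM at day 0, 29.1, 24.4, 27.4 and 29.2 CPM at day 1 and 31.4, 27.3, 30.0 and 24.8 CPM at day 12 in LHCN-M2. Both later days lay above day 0 in every library, by 1.05 ± 0.11 (SE, adjusted p = 1.39e-06) at day 12. In C2C12 Itgb2 stayed between 0.98 and 4.63 CPM. Its alpha partners ITGAL, ITGAM, ITGAX and ITGAD were near 0 in both lines, at most 0.53 CPM in any library. The summed level of 8 leukocyte markers in LHCN-M2 was 3.98 to 5.82 CPM at day 12, against 11.3 to 17.3 CPM at day 0, most of it from CORO1A and LAPTM5, and the defining marker PTPRC was at 0.343 to 0.868 CPM at day 12 and 0.106 to 0.542 CPM at day 0. The part of leukocytes in the ITGB2 change was not tested.

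The members left out by the filter were ITGA8, ITGAD, ITGAL, ITGAX, ITGB7 and LAMB4 in LHCN-M2, with 6 to 71 counts in 12 libraries, and Itga2, Itga9, Itgad, Itgal, Itgam, Itgax and Lamc3 in C2C12, with 2 to 51 counts. ITGA8 had 6 counts in all, in a single LHCN-M2 day 0 library. In C2C12 Itga8, at 0.24 to 2.73 CPM, was highest at day 1 and lowest at day 6, with log2 fold changes of 1.21 and -1.42 over day 0. ITGAE, which pairs with ITGB7 on lymphocytes, was at 13.9 to 18.9 CPM at day 12, against 16.7 to 32.7 CPM at day 0 in LHCN-M2, with overlapping ranges and a log2 fold change of -0.51 ± 0.18 (SE, adjusted p = 0.0236). In C2C12 it stayed at or below 1.58 CPM and was not called in any contrast.

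Counts divided by gene length gave the make-up of each chain class within a library. Among laminin alpha transcripts LAMA2 held 87.8% ± 1.66 at day 0, 72.0% ± 0.661 at day 1 and 77.0% ± 0.0649 at day 12 in LHCN-M2 (SD, n = 4 for each share). LAMA5 held 2.32% ± 0.333, 18.3% ± 0.924 and 12.9% ± 0.321 on the same days. In C2C12 Lama4 held 74.3% ± 1.05 at day 0, 56.1% ± 1.64 at day 1 and 16.5% ± 0.910 at day 6. Lama5 took over the lead there, with 16.3% ± 0.825, 34.6% ± 1.38 and 59.6% ± 2.40 on these days, and Lama2 held 23.2% ± 1.65 at day 6.

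Between the beta chains the balance tilted to LAMB2 in LHCN-M2, with 43.8% ± 3.51 at day 0, 55.9% ± 0.838 at day 1 and 65.2% ± 0.826 at day 12. It tilted to Lamb1 in C2C12, with 47.5% ± 1.49 at day 0, 46.4% ± 1.53 at day 1 and 63.6% ± 0.634 at day 6. LAMC1 held at least 99.0% of gamma chain transcripts on each day in LHCN-M2 on average.

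Among alpha integrins ITGA6 held 28.4% ± 0.729 and ITGA11 26.8% ± 1.81 at day 12 in LHCN-M2, where ITGA3 with 31.6% ± 3.44 and ITGA5 with 22.2% ± 0.815 had led at day 0. In C2C12 Itga7 held 47.1% ± 1.42 at day 6, and Itga5 had led at day 0 with 35.7% ± 0.545. The summed level of the alpha class in LHCN-M2 was 503 to 583 CPM per kilobase at day 12, against 264 to 307 at day 0, while in C2C12 it was 125 to 131 at day 6 and 127 to 144 at day 0. The summed laminin alpha level was 55.2 to 76.3 CPM per kilobase at day 12 in LHCN-M2, against 14.7 to 28.1 at day 0. In C2C12 it was 14.7 to 18.4 CPM per kilobase at day 6, against 37.5 to 47.2 at day 0. It was thus higher at the last day in every LHCN-M2 library and lower in every C2C12 library.

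**Figure D4:**
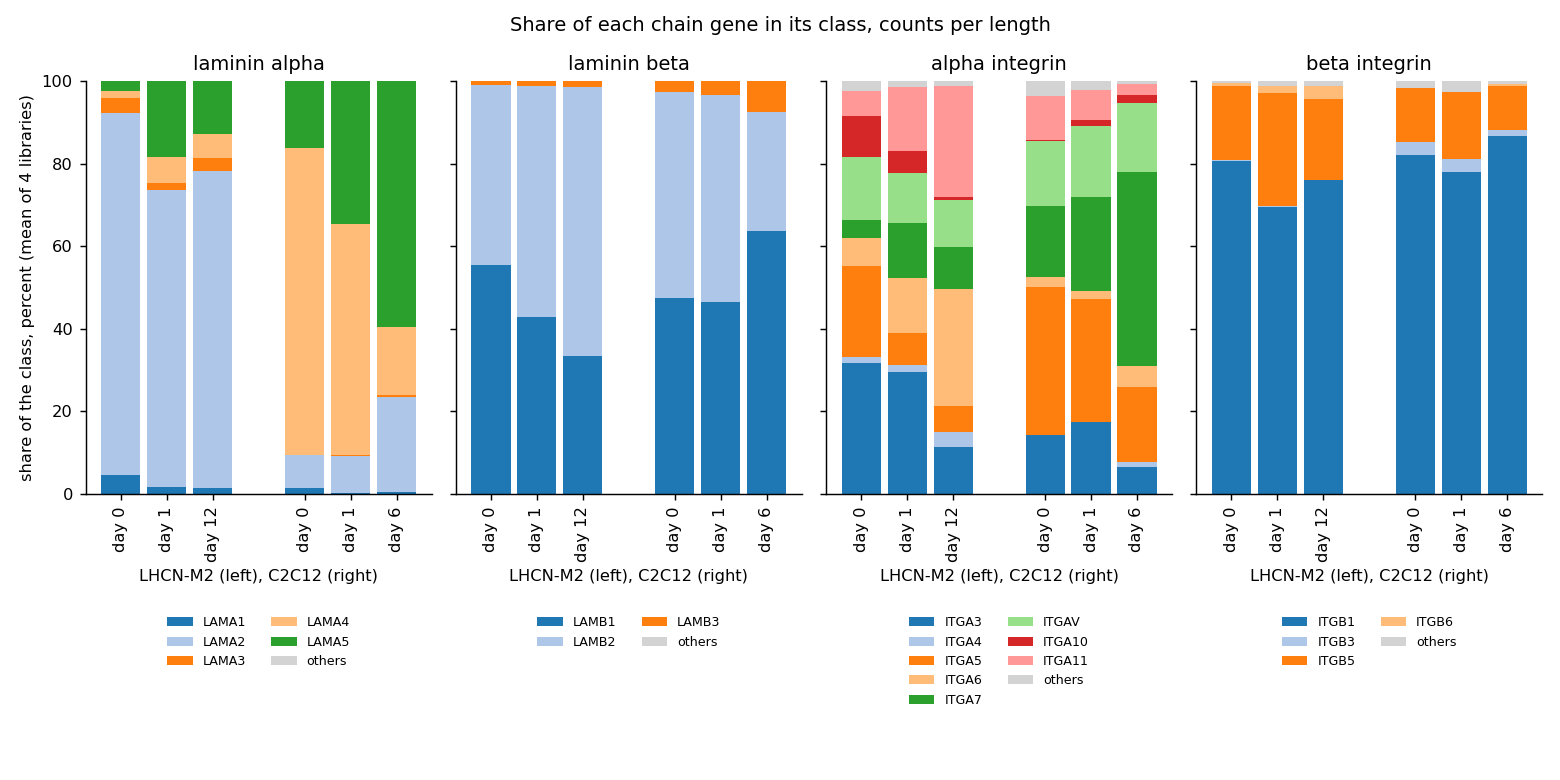
Share in percent of each gene in its class by day, for laminin alpha, laminin beta, alpha integrin and beta integrin genes, from counts divided by gene length, as means of 4 libraries; in each panel the left 3 bars are LHCN-M2 and the right 3 bars C2C12, and genes that never reach 3% are pooled as others. LAMA2 dominates the alpha chains in LHCN-M2, the lead passes from LAMA4 to LAMA5 in C2C12, and ITGB1 holds 69.6% to 86.7% of the beta integrins throughout.

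Whether a member changed differently in the lines was tested directly, as the log2 fold change in LHCN-M2 minus that in C2C12, over 10953 genes matched by symbol and tested in both, among them 28 members. Symbol matching is not a table of orthologues. On the first day 20 of the 28 differed (15 higher in LHCN-M2, 5 lower), beside 60% of all matched genes called, 26% higher and 34% lower. Without the pair of LHCN-M2 libraries that stood apart, 8 were lower. For the last day over day 0 24 differed (17 higher, 7 lower), beside 71.2% called, 31.2% higher and 40% lower. For the last day over day 1 16 differed (9 higher, 7 lower), beside 56.9% called, 27% higher and 29.9% lower. The median difference of the members at the last day was 0.61, beside -0.13 over all matched genes.

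At the last day over day 0, 8 of the 28 members were higher in both lines, beside 11.1% of the 10953 matched genes, and 4 were lower in both, beside 11.1%. Another 6 were called in opposite directions, each with a called difference, beside 26.5% of the matched genes, so opposite calls were no more frequent among the members than among all matched genes. The higher ones in both are ITGA4, ITGA6, ITGA7, ITGB5, ITGB6, LAMA3, LAMA5 and LAMB3, and the lower ones in both are ITGA3, ITGA5, ITGB3 and LAMB1. Of these, Lama3 was barely present in C2C12, averaging 0.0229 ± 0.0081 CPM per kilobase at day 0 and 0.0526 ± 0.0275 at day 6 (SD, n = 4 each). The opposite ones are LAMA4, ITGA1, ITGA11, LAMB2, ITGB8 and ITGA10. The difference was 6.91 ± 0.18 (SE, adjusted p = 2.31e-20) for LAMA4, 5.22 ± 0.28 (SE, adjusted p = 2.49e-14) for ITGA1 and 5.19 ± 0.20 (SE, adjusted p = 4.22e-17) for ITGA11, all higher in LHCN-M2. It was -6.26 ± 0.16 (SE, adjusted p = 3.89e-20) for ITGA10, which was lower there. LAMA5 rose in both lines, by more in LHCN-M2, with a difference of 3.57 ± 0.18 (SE, adjusted p = 5.19e-15). Itga4 and Itgb6 also rose in both, by more in C2C12, with differences of -2.01 ± 0.29 (SE, adjusted p = 1.52e-06) and -1.29 ± 0.20 (SE, adjusted p = 4.78e-06). For ITGA5 the last-day difference of 0.21 ± 0.10 (SE, adjusted p = 0.0654) missed the threshold and passed it without any 1 of 5 libraries (adjusted p from 0.0188), while its first-day difference was -1.13 ± 0.10 (SE, adjusted p = 5.45e-10).

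Among the members called in opposite directions on the first day, LAMA2, LAMA4, ITGA6, ITGA11 and ITGB2 rose in LHCN-M2 and fell in C2C12, and ITGA10 fell in LHCN-M2 and rose in C2C12. Of these, LAMA4, ITGA10 and ITGA11 kept opposite calls at the last day over day 0, and ITGA6 was by then higher in both. The call for LAMA2 in C2C12 was among those lost when 1 library was left out.

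**Figure D5:**
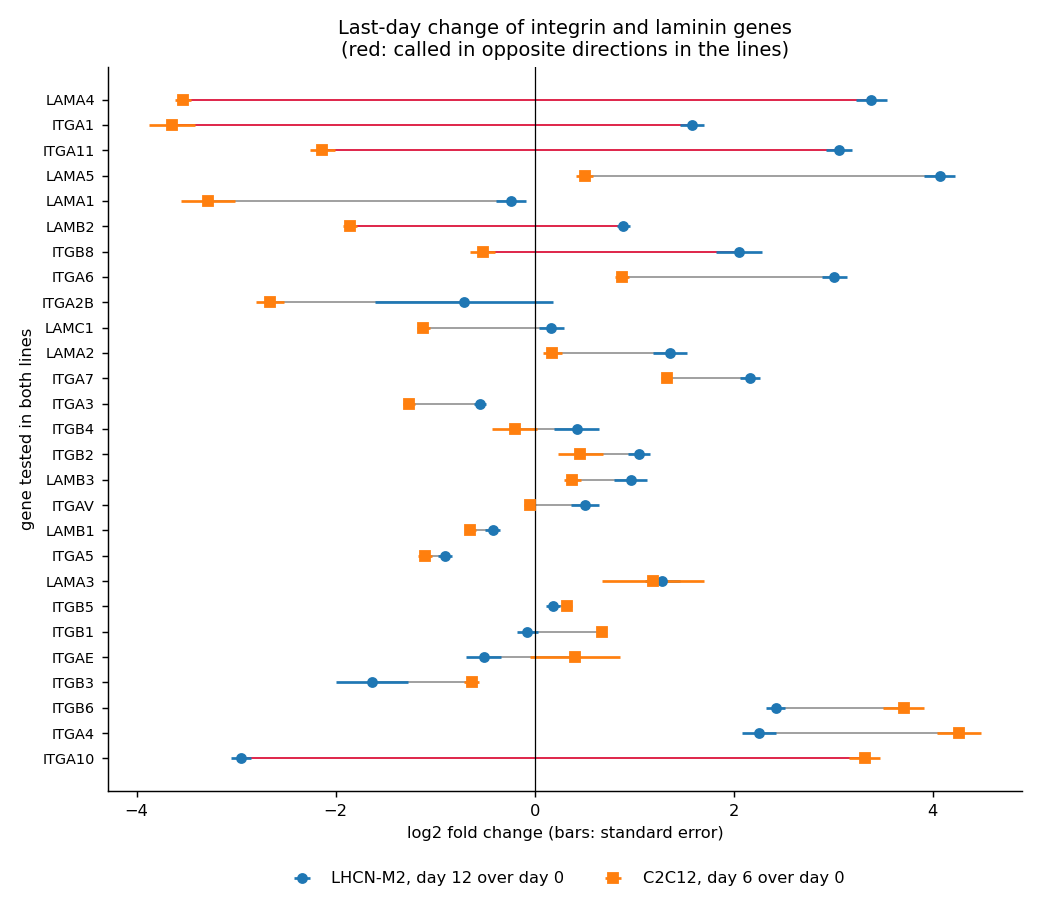
Log2 fold change at the last day over day 0 with its standard error for members tested in both lines, circles for LHCN-M2 (day 12) and squares for C2C12 (day 6), ordered by the difference. Red lines mark the 6 members called in opposite directions, with LAMA4 at the top and ITGA10 at the bottom.

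Lists of partner genes were counted in the same fits, where 27.1% of all genes were higher and 27.5% lower at day 12 than at day 0 in LHCN-M2, and 33.1% higher and 32.5% lower at day 6 than at day 0 in C2C12. Of 16 basement membrane partners of laminin, 15 passed the filter in LHCN-M2 and 12 were higher and 1 lower at day 12 than at day 0, with a median log2 fold change of 1.01. In C2C12 13 passed, and 1 was higher and 9 lower at day 6 than at day 0, with a median of -0.60. In LHCN-M2 COL15A1, a collagen of muscle basement membranes, averaged 201 ± 20.4 CPM at day 12 and 17.1 ± 2.06 CPM at day 0 (SD, n = 4 each), and COL4A5, a collagen IV chain, 145 ± 8.47 CPM and 39.8 ± 5.59 CPM. In C2C12 Hspg2, which encodes perlecan, averaged 205 ± 20.1 CPM at day 6 and 535 ± 114 CPM at day 0, and Nid2, nidogen, 132 ± 7.30 CPM and 292 ± 38.4 CPM. NTN4, a laminin-related netrin, was higher at the last day in both lines, averaging 81.1 ± 2.31 CPM at day 12 and 28.6 ± 4.53 CPM at day 0 in LHCN-M2, and 27.8 ± 2.77 CPM at day 6 and 9.16 ± 0.840 CPM at day 0 in C2C12.

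Of 10 non-integrin laminin receptors, 5 were higher and 4 lower at day 12 than at day 0 among 10 tested in LHCN-M2. In C2C12 5 were higher and 3 lower at day 6 among 9 tested. BCAM, a receptor for laminins with the LAMA5 chain, was at 2.89, 6.95, 5.17 and 2.85 CPM at day 0, 28.0, 21.6, 26.3 and 25.9 CPM at day 1 and 109.5, 93.7, 103 and 109.6 CPM at day 12 in LHCN-M2. It climbed at each step without overlap, by 4.54 ± 0.23 (SE, adjusted p = 3.29e-10) at day 12, and in C2C12 it rose by 1.43 at day 6 on the log2 scale, to 4.63 to 5.97 CPM. DAG1, which encodes dystroglycan, was higher at day 1 than at day 0 in both lines, by 1.65 ± 0.13 (SE, adjusted p = 5.09e-08) in LHCN-M2 and 0.63 ± 0.07 (SE, adjusted p = 1.18e-07) in C2C12. In C2C12 Dag1 fell again between day 1 and day 6, by -0.61 ± 0.07 (SE, adjusted p = 7.66e-08). Its last-day log2 fold change over day 0 was 1.48 in LHCN-M2 and 0.02 in C2C12, a difference of 1.46 ± 0.15 (SE, adjusted p = 5.36e-09). SDC1, a syndecan, was lower at day 12 than at day 0 in LHCN-M2 (log2 fold change -2.25) and SDC2, another syndecan, higher (2.76).

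Of 25 other integrin ligands, 15 were higher and 4 lower at day 12 among 23 tested in LHCN-M2, and 6 were higher and 13 lower at day 6 among 20 tested in C2C12. Nephronectin (NPNT), a basement membrane ligand of ITGA8, rose in both lines. It was at 0, 0.159, 0 and 0 CPM at day 0, 4.00, 3.27, 6.26 and 4.24 CPM at day 1 and 107, 117, 117 and 115 CPM at day 12 in LHCN-M2. Npnt was at 22.2, 21.1, 21.8 and 23.2 CPM at day 0, 46.4, 47.9, 44.4 and 44.7 CPM at day 1 and 165, 162, 171 and 158 CPM at day 6 in C2C12. VCAM1, the ligand of ITGA4, was higher at day 12 in LHCN-M2, averaging 28.8 ± 2.94 CPM, against 1.08 ± 0.431 CPM at day 0 (SD, n = 4 each). Col1a2, a chain of collagen I described above, was among those lower in C2C12.

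Of 30 adaptors and focal adhesion genes, 11 were higher and 11 lower at day 12 in LHCN-M2 and 11 higher and 9 lower at day 6 in C2C12, among 29 tested in each. ITGB1BP2 (melusin), a striated muscle protein that binds the tail of ITGB1, rose in both lines, to 22.1 ± 1.21 CPM at day 12 against 0.753 ± 0.523 CPM at day 0 in LHCN-M2 and to 20.6 ± 1.91 CPM at day 6 against 0.938 ± 0.196 CPM at day 0 in C2C12. At the last day over day 0 SORBS2, a sarcomere and adhesion adaptor, rose in LHCN-M2 (log2 fold change 3.64) and Nrap, a protein of the muscle tendon junction, in C2C12 (3.87), while Tln2, a talin, fell in C2C12 (-1.45). Of 9 tetraspanins that associate with integrins, 8 were higher at day 6 than at day 0 in C2C12, among them Tspan8 (log2 fold change 6.57) and Tspan32 (3.44). In LHCN-M2 2 were higher and 3 lower at day 12 among 8 tested.

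The summed level of 7 smooth muscle markers was 847 to 926 CPM at day 12 in LHCN-M2, against 391 to 627 CPM at day 0, and 1400 to 1599 CPM at day 6 in C2C12, against 1683 to 1828 CPM at day 0, with the defining marker MYH11 at no more than 0.81 CPM in any library. Of 6 tested in LHCN-M2, ACTA2 (log2 fold change 3.85), LMOD1 (3.56) and TAGLN (0.86) were higher at day 12 than at day 0 and SMTN (-1.48) lower. In C2C12 all 5 tested were lower at day 6 than at day 0. The 7 endothelial markers summed to at most 20.1 CPM in any library, the 5 glial markers to at most 7.06 CPM and the 7 epithelial markers to at most 4.53 CPM in LHCN-M2 and 31.95 CPM in C2C12, mostly Krt14. Their part in the changes of the members was not tested.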

How the data were processed

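Poly-A RNA of 24 libraries was measured by RNA-seq. The authors deposited, for each line, a table of raw read counts per gene with 1 column per library and no normalization. The tools named per the submitters' processing notes are featureCounts 2.0.6, HISAT2 2.2.1, fastp and StringTie 2.2.3, and the builds named are mm10, GRCh38 and hg38. Which annotation release and strand setting applied is not given in the sources used here, so a member and an antisense gene that overlaps it may share reads. The labels describe poly-T bead capture and random hexamer priming. A member counted in the totals is not reported here by name. Groups were taken from the sample titles. Human positions are those of the deposited table (GRCh38, whole gene). The deposited mouse coordinates matched the start and end in GENCODE M21 for 1391 of 50719 rows (2.74%) and for 0 of the 37 members, so none are given, and mouse promoters come from RefSeq on GRCm38.p6.

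Members and lists were chosen with earlier results of these data known. Counts were analysed with edgeR 4.0.16 in R 4.3.3: filterByExpr (minimum count 10) left 18214 LHCN-M2 and 17065 C2C12 genes, and TMM gave the scaling. Per line, 1 quasi-likelihood model held all 12 libraries, with days as its coefficients. Differences between the lines were tested in 1 fit of all 24 libraries over 10953 genes matched by symbol, with scaling within each line. Adjusted p-values are Benjamini-Hochberg values with a threshold of 0.05, and SE is the standard error of the log2 fold change. Levels are CPM with TMM-scaled totals. Levels per kilobase and shares use the gene length of the deposited tables. Values by library are given for members with a mean of at least 5 CPM on a day and a called log2 change of at least 1, and for ITGA5, ITGA6, ITGA7, ITGAV, ITGB1, LAMA2, LAMA4, LAMA5, LAMB1, LAMB2 and LAMC1. ITGA3 in LHCN-M2 and further low members that are given by range fall outside that rule, as do DES, MYF5, PTPRC, CORO1A, LAPTM5, TCF21, THY1, Dcn, Lum, MYH11 and Krt14, which were named after their values were seen. POSTN, PDGFRB, COL1A1, MYMK, ACTA2, LMOD1, TAGLN and SMTN were also named after their values were seen. The fits were also run on simulated counts with known changes. That simulation gave all genes the same spread and held no library that stood apart. It therefore cannot show how the fits behave with such libraries. No pair of libraries of a group agreed within sampling noise (chi-square per degree of freedom 6.32 to 152). Same-numbered libraries did not deviate together (correlations of -0.1 to 0.091 in LHCN-M2 and -0.053 to 0.039 in C2C12), so no replicate block was used. Among libraries with different numbers the largest correlation was 0.236, between LHCN-M2 day 0 replicate 2 and day 12 replicate 1, the pair that stood apart. Alternatives were another library scaling, no filter, fits of only the days compared, DESeq2 1.42.0, a replicate block, and leaving out each library in turn or, chosen after seeing the data, a pair of LHCN-M2 libraries.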

Additional observations from a re-analysis of the deposited data

Results flagged for a closer look

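Libraries that lay far from the other 3 of their group were looked for among the named members in 126 groups of 4, by the gap to the nearest library over the range. Chance flags about 1 in 20 such groups, and 15 groups held such a library. LHCN-M2 day 0 replicate 2 was apart for 6 members: it was low for ITGB1 (1740 CPM, others 2619 to 2680), ITGAV (246 CPM, others 398 to 426), ITGA10 (154 CPM, others 196 to 201), ITGA11 (149 CPM, others 209 to 217) and LAMC1 (655 CPM, others 971 to 1019), and high for ITGB2 (16.5 CPM, others 12.6 to 13.2). LHCN-M2 day 12 replicate 1 was low for 5 members: LAMA2 (440.3 CPM, others 586 to 609), LAMA3 (21.9 CPM, others 33.8 to 34.2), LAMA5 (103 CPM, others 138 to 140.4), LAMC1 (824 CPM, others 1075 to 1107) and ITGB8 (18.9 CPM, others 25.04 to 26.03). In LHCN-M2 day 1 replicate 2 LAMB2 was at 474 CPM (others 517 to 525). In C2C12 Itga3 was at 105 CPM in day 0 replicate 1 (others 115 to 116), Lama1 at 1.01 CPM in day 1 replicate 1 (others 0.55 to 0.59) and Lama2 at 51.2 CPM in day 6 replicate 2 (others 66.4 to 69.2).

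By the test of the difference itself in edgeR, the change differed between the lines for 20 of 28 members on the first day. It did so for 24 at the last day over day 0 and 16 at the last day over day 1. These were 71.4%, 85.7% and 57.1% of the members, beside 60%, 71.2% and 56.9% of all matched genes. Differences of members called in opposite directions in the lines are given here as the log2 fold change in LHCN-M2 minus that in C2C12. On the first day the differences were 4.35 for LAMA4, 2.04 for ITGA11, 1.99 for ITGB2, 1.53 for LAMA2, 1.49 for ITGA6 and -3.90 for ITGA10. At the last day over day 0 they were 6.91 for LAMA4, 5.22 for ITGA1, 5.19 for ITGA11, 2.75 for LAMB2, 2.57 for ITGB8 and -6.26 for ITGA10. At the last day over day 1 they were 3.79 for ITGA1, 3.15 for ITGA11, 1.91 for LAMB2, 1.33 for ITGA5 and 0.87 for ITGAV.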

How the results depend on the processing

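Of the 18 counts of members called in a direction, 17 stayed within 1.5 times of their value under every alternative run. The exception was the members lower in LHCN-M2 than in C2C12 on the first day, 8 without both LHCN-M2 libraries that stood apart, against 5. Leaving out 1 library at a time gave 14 to 16 higher and 6 to 8 lower at day 1, 16 to 17 and 6 to 8 at day 12 over day 0, and 11 to 13 and 5 to 7 at day 12 over day 1 in LHCN-M2, and 10 to 12 and 9 to 14, 10 to 13 and 14, and 8 and 15 in the same order in C2C12. Without the pair of LHCN-M2 libraries that stood apart, chosen after seeing the data, the LHCN-M2 counts were 16 and 8, 18 and 7, and 15 and 6, and those of the differences between the lines 15 and 8, 18 and 6, and 12 and 8. For the differences between the lines, leaving out 1 library gave 15 to 16 higher and 5 to 7 lower on the first day, 15 to 19 and 6 to 7 at the last day over day 0, and 9 to 10 and 7 to 9 over day 1. Of 4137 values of named members under alternatives, 4043 kept their side of the threshold (54 of them, called in neither fit, changed sign), 39 lost their call, 55 gained one and 0 reversed. With a replicate block, although the numbers do not pair the libraries, C2C12 had 10 higher at day 1 and 10 higher at day 6 over day 0, LHCN-M2 had 16 higher at day 12 over day 0 and 11 over day 1, and LAMB2 at day 12 over day 1 lost its call (adjusted p = 0.0751), as it did with no filter (adjusted p = 0.149).

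Shares of raw counts, with no division by length, differed by more than the spread between libraries in 20 cases. In LHCN-M2 they were 37.0% for ITGA3, 83.6% for LAMA2 and 59.6% for LAMB1 at day 0, 33.9% for ITGA3, 68.05% for ITGB1, 65.9% for LAMA2, 52.0% for LAMB2 and 99.7% for LAMC1 at day 1, and 22.05% for ITGA6, 75.0% for ITGB1, 71.6% for LAMA2 and 61.7% for LAMB2 at day 12. In C2C12 they were 26.05% for Itga5, 73.0% for Lama4 and 38.3% for Lamb2 at day 0, 21.2% for Itga5 and 38.7% for Lamb2 at day 1, and 49.1% for Itga7, 53.5% for Lama5 and 73.7% for Lamb1 at day 6. Division by length was the only step changed. It also decided which gene led in some classes. Without it, ITGA11 lay above ITGA6 at day 12 in LHCN-M2. In C2C12 Lamb1 then lay above Lamb2 at days 0 and 1, and Itga7 and Itgav above Itga5 at day 1. Members near 0 counts carry little information at this depth.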
